A study of Mus musculus with 2 samples.

Results

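A set of 41 extracellular matrix genes, of 31053 genes in the count tables, was measured in single cells of the mouse lung. The genes were chosen by symbol as building blocks, cross-linking enzymes and regulators of the matrix, and all 41 were present in both tables and annotated as protein coding. They comprise 17 collagen chains, 6 elastic fibre genes, 3 lysyl oxidases, 8 adhesive or matricellular glycoproteins, 4 proteoglycans and 3 inhibitors of metalloproteases. The comparison asked how the cells of the lung, here its matrix-producing cells and macrophages, differed with and without Cre. The tested mice were Nkx2.1 Cre;Lkb1f/f and the control mice were Lkb1f/f, so the floxed Lkb1 alleles were common to both genotypes. Lkb1 is the serine/threonine kinase also named Stk11. The driver follows Nkx2-1, which is made by the progenitors of the lung epithelium, and is known for recombination there rather than in the cells that make most matrix. All mice were 5 weeks old, and total lung cells of 3 mice were pooled into 1 droplet library (10x Chromium 3′ v3) per genotype, called the Cre library and the Lkb1f/f library below.

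The extracellular matrix of the lung is laid down mostly by fibroblasts, smooth muscle and mesothelium. Fibrillar collagens give tensile strength, elastin and its microfibrils give recoil, and lysyl oxidases cross-link both. Basement membrane collagens lie under epithelium and endothelium, matricellular proteins such as thrombospondins and tenascin-C modulate adhesion and growth factor activity, and tissue inhibitors of metalloproteases restrain matrix breakdown.

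The Cre library held 16821 barcodes and 81598779 unique molecular identifiers (UMIs, which count transcripts), and the Lkb1f/f library held 13587 barcodes and 74219499 UMIs. After filtering, 14675 and 12455 cells remained, at medians of 3250 and 3611 UMIs. Of the barcode sequences, 68 occurred in both libraries, 59 of them among the kept cells. With 1 library per genotype there was no replicate check and no test, and genotype, mice, pooling and library cannot be told apart. Stk11 itself stood at 29.3 CPM (UMIs of the gene per 1000000 UMIs of the class) in AT2-like cells of the Cre library and 48.8 CPM in those of the Lkb1f/f library, and at 39.7 and 31.2 CPM in alveolar fibroblast-like cells. The tags come from transcript 3′ ends and which exons were floxed is not stated in the labels, so these levels check little.

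Cells were assigned to classes by marker genes, none of which is among the 41, and the names end in -like for that reason. The classes described are alveolar fibroblast-like (817 and 494 cells in the Cre and Lkb1f/f libraries), adventitial fibroblast-like (292 and 211), myofibroblast-like (61 and 56), smooth muscle-like (84 and 83), mesothelial-like (198 and 211), alveolar macrophage-like (884 and 511) and interstitial macrophage-like cells (394 and 229). Within each class all UMIs were summed per library. A fold is the CPM of the Cre library over that of the Lkb1f/f library, divided by the median ratio of all genes with at least 50 UMIs in the class. A gene with at least 50 UMIs counted as higher or lower when its fold was at least 1.5 or at most 1 over 1.5. The share of all genes tested that met the same limits is given as a background for the main setting only. Counts in other settings or in parts of a class have no such share beside them. The 95% intervals are exact for Poisson counts and cover counting error only. The division shifted folds by more than 0.1 on the log2 scale in some classes, by 0.17 in adventitial fibroblast-like, 0.12 in smooth muscle-like, 0.19 in interstitial macrophage-like and 0.21 in B cell-like cells.

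B cells make little of this matrix, so their counts gauge RNA that floats free of cells. The 41 genes took 0.0671% of the UMIs of B cell-like cells in the Cre library and 0.0351% in the Lkb1f/f library, a ratio of 1.91 (95% interval 1.80 to 2.03). Of 18 members with at least 50 UMIs there, 10 were higher and 0 lower, where 4.76% and 5.95% of all genes tested were. As a share of UMIs, the background of matrix transcripts was thus larger in the Cre library. Median depth of B cell-like cells was 1998 UMIs in the Cre library and 3056 in the Lkb1f/f library. Its part in this ratio was not tested. A member was taken as above this background where, in the library in which it was higher, its level was at least 3 times that of B cell-like cells. A member can therefore pass through 1 library alone.

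The 41 genes took a larger share of the transcripts in the Cre library in all 5 mesenchymal classes, and in most classes outside the mesenchyme. In adventitial fibroblast-like cells, which surround vessels and airways, they made up 7.51% of UMIs in the Cre library and 6.47% in the Lkb1f/f library, a ratio of 1.16 (1.15 to 1.17). In 1 sub-cluster of this class (159 and 115 cells) they made up 9.07% and 7.64%, and in another (76 and 54 cells) 5.77% and 5.55%. The share was 5.19% and 4.29% in alveolar fibroblast-like cells (ratio 1.21, 1.20 to 1.22). In myofibroblast-like cells, contractile cells of the alveolar mouths and airways, it was 4.35% and 2.69% (ratio 1.62, 1.56 to 1.68). In the sub-cluster that held 59 and 49 of these cells the share was 4.35% and 3.14%, so the difference was smaller there. Smooth muscle-like cells had shares of 2.68% and 1.97% (ratio 1.36, 1.32 to 1.40). In the sub-cluster that held 60 and 61 of them the share was 2.61% and 2.09%, so the difference was smaller there. In the sub-cluster that held most myofibroblast-like cells, with 17 and 11 smooth muscle-like cells, the latter had 4.21% and 2.60%. Mesothelial-like cells, the lining of the lung surface, had 2.54% and 2.18% (ratio 1.16, 1.15 to 1.18). Alveolar macrophage-like cells had 0.212% and 0.0750% (ratio 2.83, 2.73 to 2.93). Interstitial macrophage-like cells had 0.240% and 0.246%, and their ratio of 0.974 had an interval that spans 1 (0.932 to 1.02). Of the remaining classes, the ratio was 1.46 in arterial-like, 1.38 in general capillary-like, 1.36 in AT2-like and 1.98 in T cell-like cells. It was below 1 in AT1-like (0.912) and ILC2-like cells (0.732). Among the 117 ILC2-like cells of the Lkb1f/f library, 93 Eln UMIs lay in 5.13% and 13 Timp1 UMIs in 0.855% of cells. The part of such single cells in the ratio of 0.732 was not tested. The larger share was thus not particular to the mesenchymal classes. In T cell-like cells the share was 0.0505% and 0.0255%, below that of B cell-like cells. There, 0 members with at least 50 UMIs reached 3 times the B cell-like level. The ratio in T cell-like cells is therefore not read as expression by them.

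**Figure D1:**
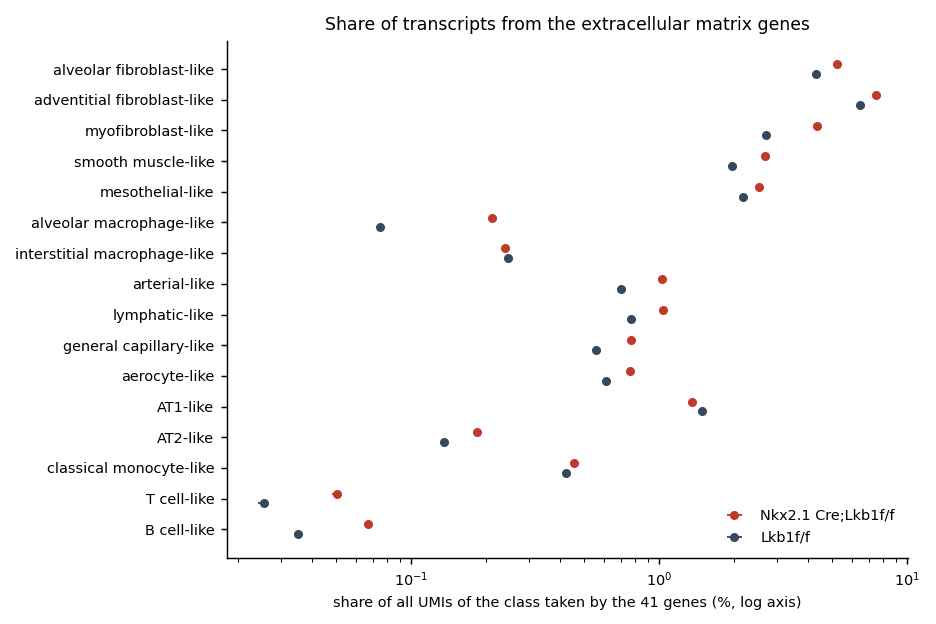
Share of all UMIs of a class taken by the 41 genes (log axis), with the Cre library in red above the Lkb1f/f library in dark grey, and exact 95% intervals for counting error only. The 5 mesenchymal classes lie between 1.97% and 7.51%, and B cell-like cells at 0.0671% and 0.0351%.

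By class, 38 of the 41 genes were highest in a mesenchymal class in the Cre library and 36 in the Lkb1f/f library, among 25 classes with at least 50 cells per library. For 34 genes the leading class was the same in both. Adventitial fibroblast-like cells led for 18 genes in the Cre library and 16 in the Lkb1f/f library, among them the fibrillar collagen chains Col1a1, Col1a2, Col3a1, Col5a1 and Col5a2. Col1a1 (type I collagen) had 5724 CPM there in the Cre library and 4206 CPM in the Lkb1f/f library, at least 3 times the level of the next class in each. Decorin (Dcn), a small proteoglycan that binds collagen fibrils, also led there, at 7239.9 and 8174 CPM, with mesothelial-like cells next at 2028 and 2196 CPM. Alveolar fibroblast-like cells led for Eln, which encodes elastin, at 8608 and 5875 CPM. They also led for Mfap4, a microfibril-associated protein, at 4769 and 4742 CPM, for Npnt, an integrin ligand of basement membranes, at 2309 and 2959 CPM, and for Col13a1, a transmembrane collagen, at 330.1 and 388 CPM. These genes divide the fibroblast classes in both libraries.

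Myofibroblast-like cells led for the matricellular gene Thbs1, which encodes thrombospondin 1, an activator of latent TGF beta, at 9911 CPM in the Cre library and 4995 CPM in the Lkb1f/f library. They led too for its relative Thbs2 (331 and 179 CPM) and for lumican (Lum), a collagen-binding proteoglycan (922 and 847 CPM). Smooth muscle-like cells led for Col18a1, a basement membrane collagen (511 and 294 CPM), and for periostin (Postn; 416 and 300.3 CPM). Timp2 was highest in mesothelial-like cells (2782 and 2698 CPM). Outside the mesenchyme, Col4a1, a chain of basement membrane collagen IV, was highest in general capillary-like cells (2001 and 1469 CPM), next to aerocyte-like cells at 1908 and 1438 CPM with overlapping intervals. Fbln5, needed for elastic fibre assembly, led in arterial-like cells (1570.3 and 993 CPM). Fn1, which encodes fibronectin, was highest among the 25 classes in alveolar fibroblast-like cells (2451 and 1818 CPM). Next of the 25 were alveolar macrophage-like cells at 1593 CPM in the Cre library, and interstitial macrophage-like cells at 1069.6 CPM in the Lkb1f/f library. A macrophage class present only in the Cre library, and so outside the 25, had more Fn1 than any of them (2957 CPM).

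Levels of neighbouring members were correlated over the 25 classes. Col4a1 and Col4a2 lie head to head on chromosome 8, on opposite strands with an overlap of 22 bp in the annotation. Their levels had a Spearman rho of 0.978 in the Cre library and 0.964 in the Lkb1f/f library. Col1a1 and Col1a2, whose chains form one fibril, lie on different chromosomes and had 0.928 and 0.765. Dcn and Lum, neighbours on chromosome 10, had 0.599 and 0.511. These correlations are descriptions over classes that share their library. Other pairs of members were not correlated, so the values do not show whether neighbours were more alike than other members.

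**Figure D2:**
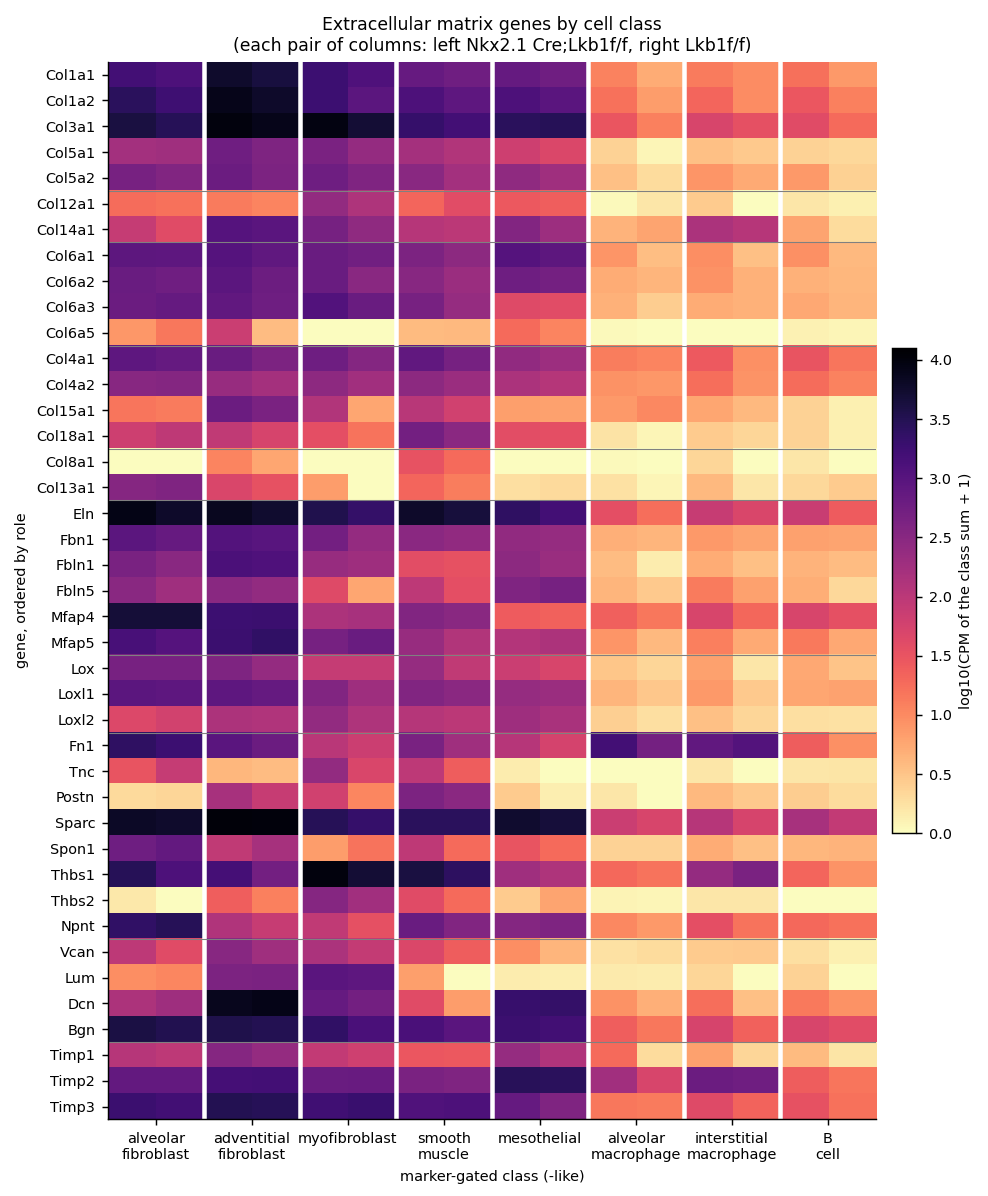
Heat map of log10(CPM + 1) for the 41 genes (rows, by role) in 7 classes and B cell-like cells (pairs of columns, left the Cre library and right the Lkb1f/f library). The mesenchymal columns are dark for most genes and the macrophage columns mainly for Fn1 and Timp2, with Thbs1 and Col14a1 in interstitial macrophage-like cells.

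Alveolar fibroblast-like cells, which line the alveolar walls, had more transcripts of Thbs1 and of the large proteoglycan versican (Vcan) in the Cre library, and fewer of tenascin-C (Tnc). Of the 36 members with at least 50 UMIs, 4 were higher and 2 lower, while 12.4% and 10.0% of all genes tested in the class were, so the counts were near this background. The median log2 fold of the members was 0.14. Without division by the class median, 5 were higher and 1 lower.

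Thbs1 (chr2:118111876-118127133, GRCm38, plus strand) had 2949.7 CPM in the Cre library and 1269.7 CPM in the Lkb1f/f library, a fold of 2.23 (2.13 to 2.34). At 1000 UMIs per cell, 63.7% of 659 cells and 39.0% of 344 cells held a Thbs1 UMI (68.1% and 43.5% of all cells without thinning), against 2.24% and 0.638% of B cell-like cells thinned alike. The difference thus appeared in the number of cells as well as in the sum. Of the class, 157 and 10 cells lay in a sub-cluster with high Thbs1, described below. Its part in both differences was not tested. The fold was 1.85 in the lowest of 14 other settings, and the call was kept in all of them. Vcan had 94.6 and 40.0 CPM, a fold of 2.28 (1.74 to 3.02). The fibril-associated collagen Col14a1 had 78.6 and 40.0 CPM (fold 1.89, 1.44 to 2.52). Its fold was 1.46 with cells assigned by clusters, and the call was lost. Fbln5 stood at 308 and 186 CPM (fold 1.59, 1.40 to 1.81). Its call was lost with a stricter filter on cells and without the sub-cluster led by Cxcl10, described below. The lowest fold of Fbln5 in the other settings was 1.46.

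Tnc, a matricellular protein of developing and injured tissue, had 30.7 CPM in the Cre library and 76.8 CPM in the Lkb1f/f library, a fold of 0.385 (0.295 to 0.501). With cells assigned by clusters its fold was 0.927 and the call was lost. Col18a1 had 63.6 and 91.8 CPM, a fold of 0.666 (0.540 to 0.825), close to the threshold. It was called in only 6 of 14 other settings, and its fold was 0.930 with cells assigned by clusters. The genes of the type I and III fibrils lay between the thresholds, with folds of 1.20 for Col1a1, 1.45 (1.39 to 1.52) for Col1a2 and 1.33 for Col3a1. Eln had a fold of 1.41 (1.38 to 1.44), and none of the 3 lysyl oxidases or the 3 metalloprotease inhibitors was called. Npnt, Spon1 and Dcn had folds of 0.750, 0.745 and 0.695, above the lower threshold. The 11 markers of the class itself summed to 7073 CPM in the Cre library and 10694 CPM in the Lkb1f/f library. Median depth was 3933 and 2232 UMIs per cell, and 72.1% and 58.3% of the cells lay in the deeper of the 2 clusters that hold the class. The part of these differences in the folds was not tested, and with every cell at 1000 UMIs 5 members were higher and 2 lower.

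The alveolar fibroblast-like cells were not uniform. When all mesenchymal cells were divided into sub-clusters without the 41 genes, one led by the cytokine genes Cxcl10, Lif and Il6 held 157 of these cells in the Cre library and 10 in the Lkb1f/f library. Thbs1 stood at 4853 CPM (4728 to 4982) in the 157 cells and 5811 CPM (5267 to 6395) in the 10. Within this sub-cluster Thbs1 was thus not higher in the Cre library. In the sub-cluster led by Slc7a10, an amino acid transporter that marks alveolar fibroblasts, Thbs1 had 2575 CPM in the Cre library (189 cells) and 1029.8 CPM in the Lkb1f/f library (218 cells). That led by Bpifa2 had 1578 and 1069.6 CPM, in 139 and 62 cells. The sub-cluster led by the haemoglobin gene Hba-a2 had 3289 and 2279 CPM, in 77 and 20 cells. Thbs1 was therefore higher in the Cre library in these 3, of which the last was led by genes of red blood cells. Shallow sub-clusters gave less. That led by Gm26917, with Retnla, Cldn18 and Chil3 of other cells among its leading genes, had 1493 and 597 CPM. Intervals overlapped in those led by Cdo1 (777 and 479 CPM), by the endothelial gene Cdh5 (899 and 493 CPM in 22 and 23 cells) and by Ces1d (131 and 119 CPM in 15 and 71 cells). The sub-clusters led by Hba-a2, Gm26917, Cdo1 and Cdh5 count as mixed, with at least 3 genes of other cells among their 10 leading genes. Without the mixed sub-clusters, 503 and 363 cells remained in the class, the fold of Thbs1 was 2.31, and 4 members were higher and 2 lower. Without the cells of the Cxcl10 sub-cluster, 3 members were higher and 3 lower in the whole class. The share of all genes called is not given for either setting.

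Eln was higher in the Cre library in the sub-clusters led by Slc7a10, Bpifa2 and Cxcl10, with 9169.9 and 7066 CPM in that led by Slc7a10 8738 and 4752 CPM in that led by Bpifa2 and 8710.4 and 5379.6 CPM in that led by Cxcl10. In the Hba-a2 sub-cluster its intervals overlapped (10774 and 10497 CPM). Fn1 had 4604 and 2443 CPM in the Slc7a10 sub-cluster and 2251 and 2294 CPM in the Cxcl10 sub-cluster. In the Slc7a10 sub-cluster Tnc stood at 99.9 CPM (76.6 to 128) and 149.98 CPM (122 to 183), where the intervals overlap. Npnt had 5086 and 4632 CPM in the same sub-cluster, against 1556 and 1446 CPM in that led by Cxcl10.

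**Figure D3:**
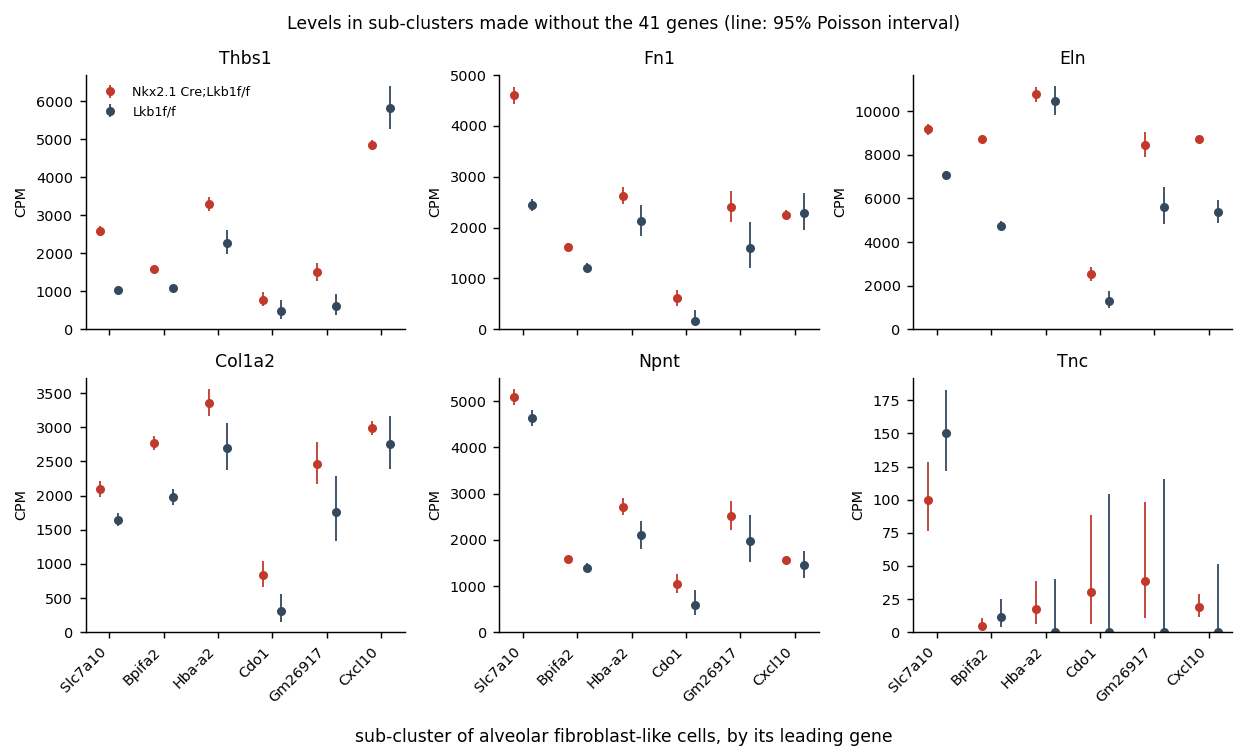
CPM of 6 genes in 6 sub-clusters of alveolar fibroblast-like cells, each named by its leading gene, with the Cre library in red left of the Lkb1f/f library in dark grey and 95% Poisson intervals. Thbs1 is highest in the sub-cluster led by Cxcl10 in both libraries, at 4853 and 5811 CPM, and Npnt in that led by Slc7a10.

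Adventitial fibroblast-like cells also had more Thbs1 in the Cre library, while their main fibrillar collagens lay between the thresholds. Of 38 members with at least 50 UMIs, 6 were higher and 1 lower, beside 8.19% and 8.88% of all genes tested. The median log2 fold of the members was 0.24. Thbs1 had 1516 CPM in the Cre library and 525 CPM in the Lkb1f/f library, a fold of 2.56 (2.36 to 2.78). Thbs2 had 23.0 and 10.98 CPM (fold 1.86, 1.03 to 3.53) and Vcan 323 and 187 CPM (fold 1.53, 1.33 to 1.78). The Vcan fold was at least 1.5 in only 7 of 14 other settings. Npnt stood at 128 and 75.5 CPM, a fold of 1.502 (1.19 to 1.90) at the threshold.

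Spon1, which encodes the matrix protein F-spondin, was the member that was lower, at 87.3 CPM in the Cre library and 157 CPM in the Lkb1f/f library (fold 0.492, 0.400 to 0.604). Its call was lost with the gate on each cell alone, where the fold was 0.895, and with that gate at a margin of 0.8 (0.876). Single cells carried much of 2 other folds. Col6a5, a chain of type VI collagen, had 131 UMIs in 15 of 292 cells of the Cre library, of which 1 cell held 71.8%, and 4 UMIs in 2 of 211 cells of the Lkb1f/f library. Its fold of 22.6 (8.64 to 84.3) was 12.6 in the lowest of the other settings. Postn had 154 and 74.1 CPM (fold 1.84, 1.47 to 2.31), and 1 cell held 48.1% of its UMIs in the Cre library. Without the richest cell of each library its fold was 1.16. Col1a1, Col1a2 and Col3a1 had folds of 1.21, 1.18 and 1.11, and Eln 1.14. Lox, whose enzyme cross-links collagen and elastin, had 395 CPM in the Cre library and 235 CPM in the Lkb1f/f library (fold 1.49, 1.31 to 1.70), just under the threshold. Dcn and Mfap5, a microfibril component, had folds of 0.785 and 0.721, and Mfap4 and Timp2 of 0.844 and 0.858.

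Myofibroblast-like cells had more transcripts of collagen chains of several types in the Cre library, together with Thbs1, Tnc and fibrillin-1 (Fbn1), the main microfibril protein. Of 28 members with at least 50 UMIs, 15 were higher and 0 lower, beside 19.4% and 18.7% of all genes tested in this small class, and the median log2 fold was 0.71. Thbs1 had 9911 CPM in the Cre library and 4995 CPM in the Lkb1f/f library (fold 1.87, 1.73 to 2.03). Col3a1 had 9107 and 4971 CPM (fold 1.73, 1.60 to 1.87), and Col1a2 1809.5 and 915 CPM (fold 1.87, 1.55 to 2.25). Higher levels were thus present among the most abundant members. Of the type VI chains, Col6a2 had a fold of 2.03 (1.48 to 2.81) and Col6a3 one of 1.67, while Col6a1 had 1.15. Tnc rested on few counts, at 248 and 48.4 CPM (fold 4.84, 2.39 to 10.8). Fbn1 had 509 and 242 CPM (fold 1.98, 1.38 to 2.87).

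The cross-linking enzymes Loxl1 and Loxl2 had folds of 1.79 and 1.75, and the proteoglycan biglycan (Bgn) one of 1.64. Col5a1, Col12a1, Col14a1, Col4a1 and Thbs2 were also higher, with folds from 1.63 to 1.75. With the gate on each cell alone, the calls of Col1a2, Col4a1, Col6a2, Col6a3, Col12a1, Col14a1, Bgn, Loxl1 and Loxl2 were lost. Col3a1 and Thbs1 kept theirs. The lowest folds in the other settings were 1.14 for Col1a2, 1.30 for Col6a2 and 1.15 for Col6a3. Timp2, Timp3 and Mfap4 had folds of 0.934, 0.804 and 0.855, and Mfap5 one of 0.693 (0.519 to 0.922), none of them called. Transcripts of other cells differed between the libraries in this class: 8 neutrophil markers summed to 82.8 CPM in the Cre library and 4259 CPM in the Lkb1f/f library, with 3 and 7 of them detected, and 7 T cell markers to 23.7 and 378 CPM. Without the sub-clusters led by genes of other cells, 60 and 49 cells remained, in which 8 members were higher and 1 lower. Thbs1, Col1a2, Col3a1, Col6a2 and Fbn1 were among the 8. Tnc then had under 50 UMIs. The share of all genes called in the 60 and 49 cells is not given, so the 8 and 1 are not set against a background.

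Smooth muscle-like cells had more Fn1 and more of the lysyl oxidase Lox in the Cre library. Of 28 members with at least 50 UMIs, 8 were higher and 0 lower, beside 12.7% and 10.6% of all genes tested, with a median log2 fold of 0.40. Fn1 had 442 CPM in the Cre library and 184 CPM in the Lkb1f/f library (fold 2.21, 1.63 to 3.01). Lox had 227 and 86.2 CPM (fold 2.42, 1.56 to 3.84). Its relatives Loxl1 and Loxl2 had folds of 1.14 and 1.08, which were not called. Col6a3 had 462 and 232 CPM (fold 1.83, 1.39 to 2.44), and Col18a1 511 and 294 CPM (fold 1.60, 1.24 to 2.06). Col5a2, Col15a1, Mfap5 and Npnt were higher too, with folds from 1.58 to 1.68. Thbs1 had 4019 and 2498 CPM and a fold of 1.48 (1.36 to 1.62), under the threshold, and Eln 5869 and 4446 CPM (fold 1.22). Timp3 and Sparc, a collagen-binding matricellular protein, had folds of 0.852 and 0.927. The 10 markers of AT2 cells summed to 803 CPM in the Cre library and 15487 CPM in the Lkb1f/f library of this class. Without the sub-clusters led by genes of other cells, 7 members were higher, Fn1 and Lox among them, and Col15a1, Col18a1 and Npnt were not. The share of all genes called is not given for that count.

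Mesothelial-like cells had more of 2 of the 3 metalloprotease inhibitors in the Cre library. Of 33 members with at least 50 UMIs, 7 were higher and 0 lower, beside 5.17% and 5.48% of all genes tested, with a median log2 fold of 0.27. Timp3, which stays bound to the matrix, had 732 CPM in the Cre library and 383 CPM in the Lkb1f/f library (fold 1.86, 1.72 to 2.01). Timp1, a secreted inhibitor, had 233 and 127 CPM (fold 1.79, 1.56 to 2.05). Timp2 was the most abundant of them here, at 2782 and 2698 CPM, and had a fold of 1.01 (0.972 to 1.04).

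Col14a1 had 357 CPM in the Cre library and 195 CPM in the Lkb1f/f library (fold 1.78, 1.59 to 1.99), and Fn1 111 and 54.0 CPM (fold 1.999, 1.63 to 2.46). Spon1 had 30.04 and 17.6 CPM (fold 1.66, 1.14 to 2.44) and Col6a5 17.6 and 10.1 CPM (fold 1.70, 1.03 to 2.86). Eln had 2447 and 1572 CPM and a fold of 1.52 (1.46 to 1.58), on the threshold. Col3a1 and Dcn, the abundant fibril and fibril-binding genes, had folds of 0.930 and 0.901, and Fbln5, Npnt and Mfap5 of 0.781, 0.855 and 0.856. The 6 erythroid markers summed to 2003 and 95.4 CPM in this class, and their part in the folds was not tested.

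**Figure D4:**
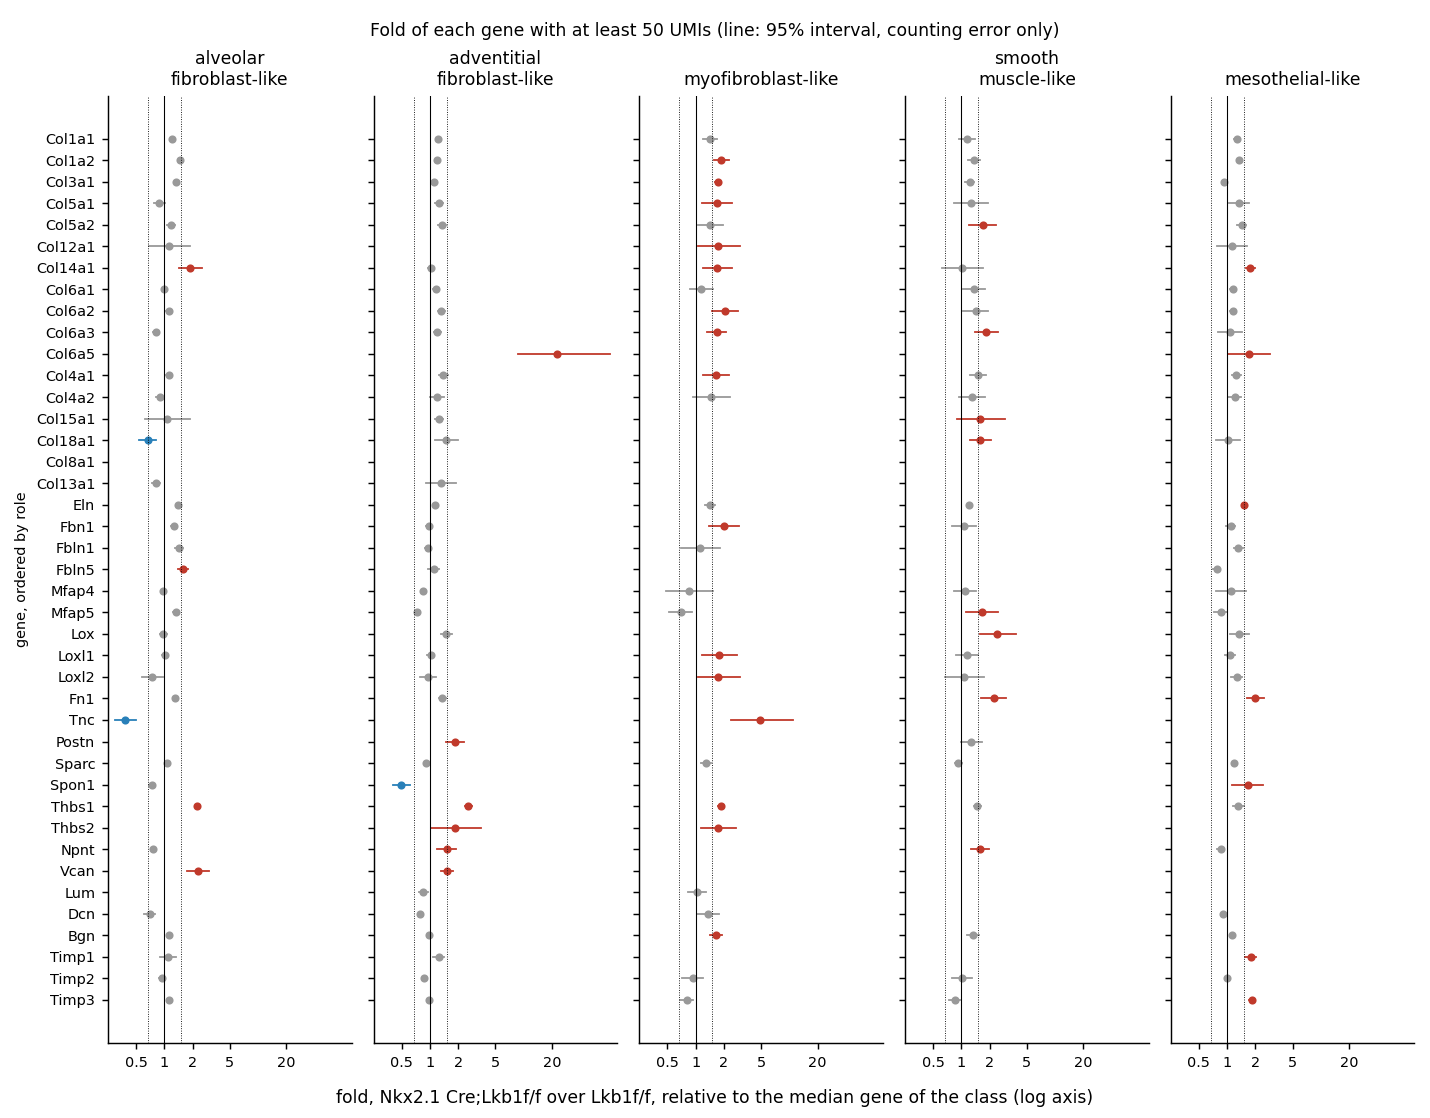
Fold of each gene with at least 50 UMIs in the 5 mesenchymal classes (log axis, Cre over Lkb1f/f, relative to the class median; lines are 95% intervals, dotted lines the 1.5-fold limits). Red genes were higher and blue genes lower; Thbs1 lies at 2.23, 2.56 and 1.87 in the 3 fibroblast classes.

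Sequences before the starts of 3 members picked by name, Timp1, Tnc and Vcan, are shown. Each differed by 1.5-fold or more in at least 1 mesenchymal class, as did other members that are not shown. The 3 windows lie wholly outside the annotated gene. The RefSeq table gave promoters for 26 of the 41 members on GRCm38.p6, and the windows are the 250 bases before the start, 5′ to 3′ on the gene's strand. Capitals mark matches, on either strand, to the Sp1 box GGGCGG, the CCAAT box, the TATA box TATAAA and the AP-1 site TGANTCA. Timp1 lies at chrX:20869916-20870165 on the plus strand, Tnc at chr4:64047016-64047265 and Vcan at chr13:89742513-89742762, both on the minus strand.
Timp1: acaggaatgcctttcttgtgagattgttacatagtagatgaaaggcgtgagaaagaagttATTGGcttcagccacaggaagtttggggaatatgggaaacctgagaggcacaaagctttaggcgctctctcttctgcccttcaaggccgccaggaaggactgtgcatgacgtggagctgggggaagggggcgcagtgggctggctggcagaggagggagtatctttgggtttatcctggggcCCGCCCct
Tnc: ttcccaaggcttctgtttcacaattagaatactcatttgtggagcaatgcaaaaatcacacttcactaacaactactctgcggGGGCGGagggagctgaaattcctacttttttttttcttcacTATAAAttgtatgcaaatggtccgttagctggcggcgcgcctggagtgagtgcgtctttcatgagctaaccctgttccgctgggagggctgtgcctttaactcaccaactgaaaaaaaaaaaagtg
Vcan: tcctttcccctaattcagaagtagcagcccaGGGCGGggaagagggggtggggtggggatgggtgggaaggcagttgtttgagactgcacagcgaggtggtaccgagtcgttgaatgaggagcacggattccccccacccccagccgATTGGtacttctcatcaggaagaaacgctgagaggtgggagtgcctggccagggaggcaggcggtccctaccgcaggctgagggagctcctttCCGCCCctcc
All 3 windows hold the GGGCGG letters, 1 time in Timp1 and Tnc and 2 times in Vcan, and none holds TGANTCA. The Tnc window alone holds TATAAA, and those of Timp1 and Vcan hold CCAAT 1 time each. Over all 32851 promoter windows of this length, GGGCGG occurred in 32.7%, CCAAT in 33.8%, TATAAA in 12.4% and TGANTCA in 6.75%. Of the 33 windows of members, 19, 9, 6 and 1 held these letters. Counted by gene, 17, 9, 5 and 1 of the 26 members with a promoter held them in at least 1 window.

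Alveolar macrophage-like cells, the resident phagocytes of the airspace, had more Fn1, Timp1 and Timp2 in the Cre library. Of 21 members with at least 50 UMIs, 13 were higher and 0 lower, beside 7.71% and 7.12% of all genes tested. Most of these levels were of the size of free RNA, since only 5 members reached 3 times the level of B cell-like cells, of which 3 were higher and 0 lower. Of these, Fn1, Timp2 and Col15a1 reached it in both libraries, Timp1 only in the Cre library and Col14a1 only in the Lkb1f/f library. Fn1 (chr1:71585520-71653200, minus strand) had 1593 CPM in the Cre library and 491 CPM in the Lkb1f/f library, a fold of 3.46 (3.32 to 3.62). B cell-like cells had 24.0 and 7.83 CPM of Fn1. At 1000 UMIs per cell, 69.9% and 32.2% of alveolar macrophage-like cells held an Fn1 UMI (96.4% and 73.2% without thinning), and 2.59% and 0.870% of B cell-like cells did. Fn1 was thus far above the background in both libraries. Median depth before thinning was 9597.5 and 9335 UMIs in the macrophages and 1998 and 3056 in the B cells.

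Timp2 had 179 CPM in the Cre library and 49.9 CPM in the Lkb1f/f library of alveolar macrophage-like cells, a fold of 3.83 (3.35 to 4.40). Timp1 was near the limit of detection in the Lkb1f/f library, with 153 UMIs (17.5 CPM) in the Cre library and 5 UMIs (1.01 CPM) in the Lkb1f/f library, a fold of 18.6 (7.80 to 58.1). B cell-like cells had 2.83 and 0.639 CPM of Timp1, so its level in the Lkb1f/f library was of the size of free RNA. Its passing the free RNA limit rests on the library in which it was higher. The collagens Col14a1 and Col15a1, which also passed the free RNA limit, had folds of 0.730 and 0.754 and were not called. Collagen I and III chains and Eln were below the level of B cell-like cells in both libraries and are not read as expression by the macrophages.

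Interstitial macrophage-like cells, the macrophages of the tissue space, had less Thbs1 and Fn1 in the Cre library. Of 12 members with at least 50 UMIs, 6 were higher and 2 lower, beside 7.89% and 8.33% of all genes tested. Only 4 of them reached 3 times the level of B cell-like cells, with 0 higher and 2 lower. Without division by the class median, 7 of the 12 were higher and 1 lower. Thbs1 had 239.7 CPM in the Cre library and 436 CPM in the Lkb1f/f library (fold 0.481, 0.425 to 0.545), and the fold was at most 0.586 in all 14 other settings. Fn1 had 774 and 1069.6 CPM (fold 0.634, 0.589 to 0.681), and kept the call in 8 of the 14. Timp2 had 628 and 554 CPM and a fold of 0.992 (0.907 to 1.09), and Col14a1 144 and 109.9 CPM (fold 1.14, 0.940 to 1.40). Median depth was 3810 and 6789 UMIs per cell.

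A class marked by Spp1 and Arg1, genes of macrophages in repair, held 369 cells in the Cre library and 0 in the Lkb1f/f library, so no fold could be formed. In those cells Fn1 stood at 2957 CPM (2899.7 to 3015), Timp2 at 508 CPM, Timp1 at 214 CPM and Thbs1 at 105 CPM. All 4 were at least 3 times the level of B cell-like cells. Eln and Sparc, at 67.0 and 66.7 CPM, were below the B cell-like level in the same library.

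**Figure D5:**
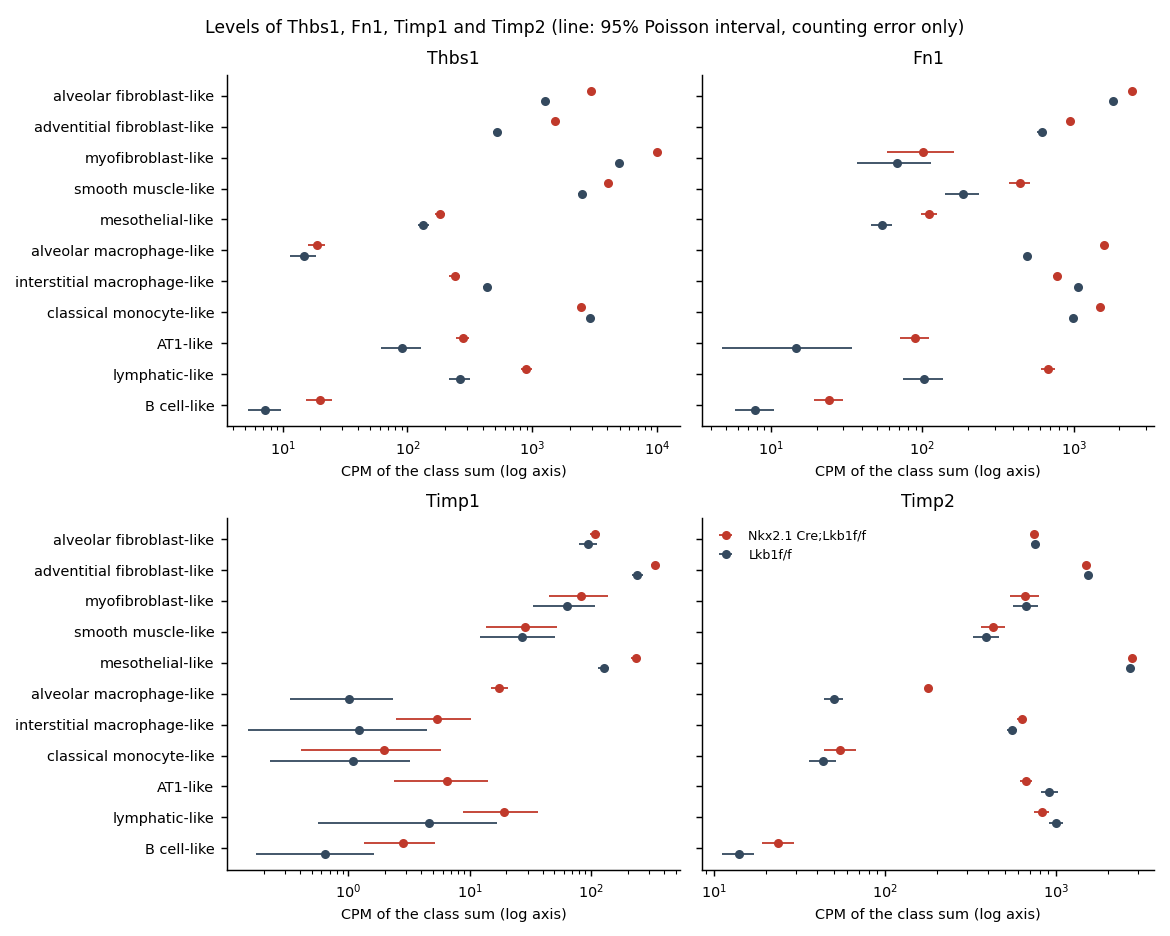
CPM of Thbs1, Fn1, Timp1 and Timp2 (log axes) by class, with the Cre library in red above the Lkb1f/f library in dark grey and 95% Poisson intervals (zeros not drawn). Alveolar macrophage-like cells have more Fn1, Timp1 and Timp2 in the Cre library (1593, 17.5 and 179 CPM, against 491, 1.01 and 49.9 CPM).

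Across all 7 classes, summed transcripts of 9 genes of the response to dissociation were lower in the Cre library, for example 12986 and 23212 CPM in myofibroblast-like and 5489 and 9001 CPM in alveolar macrophage-like cells, and 18103 and 19380.2 CPM in alveolar fibroblast-like cells. Several of these are immediate early genes, and their part in the folds above was not tested.

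Other genes of the matrix, in 6 lists, give the setting of the 41. Their counts stand beside the shares of all genes tested that were higher and lower: 12.4% and 10.0% in alveolar fibroblast-like, 8.19% and 8.88% in adventitial fibroblast-like, 19.4% and 18.7% in myofibroblast-like and 12.7% and 10.6% in smooth muscle-like cells. They were 5.17% and 5.48% in mesothelial-like, 7.71% and 7.12% in alveolar macrophage-like and 7.89% and 8.33% in interstitial macrophage-like cells. Among elastic fibre and matricellular genes, 23 had at least 50 UMIs in alveolar fibroblast-like cells, and 2 were higher and 8 lower, beside 12.4% and 10.0% of all genes, with a median log2 fold of -0.24. Wisp2 (CCN5) had 47.3 CPM in the Cre library and 202 CPM in the Lkb1f/f library (fold 0.226, 0.186 to 0.272), Ecm1 106 and 284 CPM (fold 0.360), and Ctgf (CCN2) 231 and 539 CPM (fold 0.412). Ltbp2, a latent TGF beta binding protein family member, had 117 and 40.0 CPM (fold 2.82, 2.16 to 3.73). In adventitial fibroblast-like cells 2 of 29 were higher and 5 lower, with Ecm1 (fold 0.503) and Wisp2 (fold 0.542) among the lower and Ltbp2 (fold 1.73) among the higher. In myofibroblast-like cells 4 of 12 were higher and 1 lower. There Ctgf had 1118 and 106 CPM (fold 9.90, 6.35 to 16.2) and Cyr61 (CCN1) 4524 and 842 CPM (fold 5.07, 4.29 to 6.01). Ctgf was thus on opposite sides in alveolar fibroblast-like and myofibroblast-like cells, a difference that was not tested. The neutrophil and T cell markers noted above in myofibroblast-like cells touch the count and folds of that class too. These are not given without the mixed sub-clusters. Smooth muscle-like cells had 4 of 17 higher and 1 lower, mesothelial-like cells 0 of 20 and 1, alveolar macrophage-like cells 4 of 11 and 0, and interstitial macrophage-like cells 1 of 6 and 3. In alveolar macrophage-like cells Emilin2, an elastic fibre interface protein, had 82.9 and 35.6 CPM (fold 2.48), and Nov (CCN3) had 75 UMIs in the Cre library and 1 UMI in the Lkb1f/f library.

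Genes of the TGF beta pathway and myofibroblast state gave 5 higher and 2 lower of 13 in alveolar fibroblast-like cells, beside 12.4% and 10.0% of all genes. Smad7 and Skil, both feedback inhibitors of the pathway, had folds of 2.24, and the contractile gene Tagln had one of 0.527 and the growth factor receptor gene Pdgfra one of 0.634. In alveolar macrophage-like cells 1 of 7 was higher and 1 lower. The counts were 1 higher and 1 lower of 15 in adventitial fibroblast-like cells, 1 and 0 of 7 in myofibroblast-like, 3 and 0 of 11 in smooth muscle-like, 1 and 0 of 11 in mesothelial-like and 0 and 1 of 8 in interstitial macrophage-like cells.

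Among matrix receptors, 5 of 14 were higher and 0 lower in alveolar fibroblast-like cells, beside 12.4% and 10.0% of all genes. The hyaluronan receptor Cd44 had 174 CPM in the Cre library and 78.0 CPM in the Lkb1f/f library (fold 2.14, 1.77 to 2.62), and the integrin chain Itgav 89.7 and 41.2 CPM (fold 2.09, 1.60 to 2.77). The other classes had 1 of 14 (adventitial fibroblast-like), 2 of 6 (myofibroblast-like), 3 of 10 (smooth muscle-like), 0 of 14 (mesothelial-like), 3 of 11 (alveolar macrophage-like) and 1 of 10 (interstitial macrophage-like) higher, and 1 was lower, Itga6 in alveolar macrophage-like cells (fold 0.563).

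Enzymes and chaperones of collagen assembly were mostly between the thresholds outside the myofibroblast-like class, where 5 of 6 were higher, beside 19.4% of all genes. The neutrophil markers noted above (82.8 and 4259 CPM) touch this count too, and it was not recomputed without the mixed sub-clusters. Serpinh1, the collagen chaperone HSP47, had 1177 CPM in the Cre library and 537 CPM in the Lkb1f/f library there (fold 2.07, 1.63 to 2.63). In alveolar fibroblast-like cells 2 of 17 were higher and 1 lower, with Adamts2, a procollagen protease, at a fold of 1.78 and Pcolce, an enhancer of procollagen cleavage, at 0.633. None of 18 was called in adventitial fibroblast-like cells or of 5 in smooth muscle-like cells. In mesothelial-like cells 1 of 16 was higher, in alveolar macrophage-like cells 3 of 9, and in interstitial macrophage-like cells 1 of 6 was lower. Laminins and other basement membrane genes gave 0 higher and 1 lower of 10 in alveolar fibroblast-like, 1 and 0 of 10 in adventitial fibroblast-like, 0 and 0 of 3 in myofibroblast-like, 1 and 0 of 5 in smooth muscle-like, 0 and 1 of 11 in mesothelial-like and 2 and 0 of 2 in alveolar macrophage-like cells, and none reached 50 UMIs in interstitial macrophage-like cells. Of the remaining collagen genes, 3 of 7 were higher and 2 lower in alveolar fibroblast-like cells, led by Col4a5 (360.3 and 174 CPM, fold 1.99, 1.75 to 2.27) and Col23a1 (66.9 and 114 CPM, fold 0.566). The same list had 1 of 8 higher in adventitial fibroblast-like, 0 of 1 in myofibroblast-like, 1 of 1 in smooth muscle-like and 2 of 7 in mesothelial-like cells, with none lower, and none reached 50 UMIs in either macrophage class.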

How the data were processed

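The deposited files hold raw counts, as UMIs per gene and barcode; per the submitters' processing notes they were made with Cell Ranger 3.1.0 and STAR on mm10. Kept barcodes had at least 200 genes, 500 UMIs and at most 20% mitochondrial UMIs, and doublet calls (Scrublet, expected rate 0.06; 454 in the Cre and 420 in the Lkb1f/f library) were removed. Scanpy 1.11.5, numpy 2.4.6 and scipy 1.17.1 were used in python 3.11.15. A cell joined the class with the highest mean marker z-score if at least 2 markers were detected, the score exceeded 0.5, the runner-up was at most 90% of it, and the class made up at least 20% of the gated cells of its cluster (2000 variable genes, 30 components, 15 neighbours, the 41 genes left out). The 90% limit and the 20% rule were set after member values had been seen, because the gate alone had put cells lacking Myh11 into smooth muscle. Of gated adventitial fibroblast-like cells, the 20% rule dropped 184 of 476 in the Cre library and 97 of 308 in the Lkb1f/f library. From smooth muscle-like cells it dropped 27 of 111 and 22 of 105, and from myofibroblast-like cells 22 of 83 and 13 of 69. The 2 marker genes Figf and Siglec5 were not in the tables. Unassigned cells were 14.5% in the Cre and 10.4% in the Lkb1f/f library. UMIs were summed per class and library and given as CPM. Any member may be named; in each class the 5 highest and 5 lowest by the interval bound nearest 1, with at least 50 UMIs and above the free RNA level, are always given, and of the other lists examples among the 2 furthest genes in each direction. Ctgf and Skil in alveolar fibroblast-like cells were named after their values were seen. The members and lists were chosen with earlier results of these data known. Fold calls were run on simulated Poisson counts drawn from class sums. These hold counting error only, so they cannot test the part of mice, cells, mixed classes or free RNA. Intervals cover counting error only. Positions are from GENCODE on GRCm38 and promoters from RefSeq on GRCm38.p6. Values of 1 gene of the other lists are not reported here.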

Additional observations from a re-analysis of the deposited data

Results flagged for a closer look

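The same gene was higher in the Cre library in one class and lower in another in 9 pairs of classes. None of these differences was tested, since each rests on 1 library per genotype. Thbs1 had folds of 2.23 in alveolar fibroblast-like, 2.56 in adventitial fibroblast-like and 1.87 in myofibroblast-like cells, against 0.481 in interstitial macrophage-like cells. Fn1 had folds of 2.21 in smooth muscle-like, 1.999 in mesothelial-like and 3.46 in alveolar macrophage-like cells, against 0.634 in interstitial macrophage-like cells, a call held in 8 of 14 other settings. Tnc had a fold of 4.84 in myofibroblast-like cells and 0.385 in alveolar fibroblast-like cells. The second was 0.927 with cells assigned by clusters, and without mixed sub-clusters myofibroblast-like Tnc had under 50 UMIs. Spon1 had 1.66 in mesothelial-like cells and 0.492 in adventitial fibroblast-like cells, where it was 0.895 with the gate on each cell alone. Col18a1 had 1.60 in smooth muscle-like cells and 0.666 in alveolar fibroblast-like cells. The second call was lost in 8 of 14 other settings, up to 0.930, and the first without mixed sub-clusters (1.40) and with the gate on each cell alone (1.41).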

How the results depend on the processing

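No paired analysis was possible because each genotype had 1 library, and for the same reason none could be left out. Of 14 other settings, 6 were chosen after seeing the data. Thbs1 kept its call in every setting that gave a value in both fibroblast classes, in myofibroblast-like and in interstitial macrophage-like cells, and so did Fn1, Timp1 and Timp2 in alveolar macrophage-like and Timp1 and Timp3 in mesothelial-like cells. The causes of the changes below were not tested.

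The ratio of the summed share was 1.27 (alveolar fibroblast-like), 1.13 (adventitial fibroblast-like) and 1.44 (smooth muscle-like) when clusters defined the classes, which give no myofibroblast value. At 1000 UMIs per cell it was 1.14 in adventitial fibroblast-like, 1.46 in myofibroblast-like and 1.18 in mesothelial-like cells. With doublets kept it was 1.17 and 1.54 in adventitial fibroblast-like and myofibroblast-like cells, and with a stricter filter on cells 1.69 in myofibroblast-like cells. In interstitial macrophage-like cells it turned above 1 under clusters (1.09), at 1000 UMIs (1.07) and with doublets kept (1.42), and was 0.922 with the stricter filter.

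Counts of higher members moved as follows. Neither these counts nor those of lower members have the share of all genes called in that setting beside them. Alveolar fibroblast-like cells had 7 under clusters, with a mean over cells and with the B cell level subtracted. Adventitial fibroblast-like cells had 3 at 1000 UMIs and 11 without division by the class median. Myofibroblast-like cells had 8 at 1000 UMIs or without mixed sub-clusters, and 9 with a mean over cells or the B cell level subtracted. With the gate on each cell alone, Col1a2, Col6a2 and Col6a3 were among the members of this class that lost the call. Smooth muscle-like cells had 13 at a minimum of 20 UMIs, 20 with the gate on each cell alone and 17 with that gate at a margin of 0.8. Alveolar macrophage-like cells had 2 at 1000 UMIs, 22 with doublets and 4 with the B cell level subtracted. Interstitial macrophage-like cells had 0, 17 and 3 in these settings, 11 at 20 UMIs and 10 with either gate alone.

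Counts of lower members were 0 under clusters in alveolar fibroblast-like cells, and 1 with the stricter filter, with doublets, without the class median or with the B cell level subtracted. The count was 0 in adventitial fibroblast-like cells with either gate alone. In myofibroblast-like cells it was 1 with doublets, a mean over cells, 20 UMIs, a margin of 0.8 or no mixed sub-clusters, and 2 with the B cell level subtracted. It was 1 in smooth muscle-like cells under clusters and at 20 UMIs. In alveolar macrophage-like cells it was 1 with a mean over cells and 2 with the B cell level subtracted or either gate alone. In interstitial macrophage-like cells it was 1 under clusters, at 1000 UMIs, without the class median, with a mean over cells and with either gate alone, and 4 with the B cell level subtracted.

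Col12a1 turned to 0.989 in myofibroblast-like cells with a mean over cells, and Mfap5 to 0.856 in smooth muscle-like cells under clusters. Among single members, 855 other values kept their call or size and 117 moved. Members with under 50 UMIs, for which depth allowed no call, numbered 29 in interstitial macrophage-like, 20 in alveolar macrophage-like and 13 each in myofibroblast-like and smooth muscle-like cells.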
